A study of Mus musculus with 24 samples.

Results

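Impdh1 encodes an isozyme of inosine monophosphate dehydrogenase, the enzyme that commits IMP to the guanine nucleotides. It is described here with 9 further genes of de novo purine synthesis, Ppat, Gart, Pfas, Paics, Adsl, Atic, Impdh2, Gmps and Adss, across brown adipose tissue (BAT) of 24 mice. The 10 genes were picked by symbol from the 12615 genes of a table of raw counts, and all 10 passed the filter on low counts and were among the 12485 genes tested. Impdh1 was chosen because it had the smallest p among the genes lowered by cold in Cre- mice, so its values in that comparison are a description and carry no test. The other 9 genes were chosen for their place in the pathway.

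Each transcript gave 1 tag close to its 3′ end, so that long transcripts gain no extra counts. There were 4 groups of 6 mice, Cre- or BATdKO by label, each kept at 30°C or at 8°C. All mice carried floxed alleles of TBLR1 and TBL1, a pair of related transcriptional corepressor subunits, on a C57BL6/N background, and all received tamoxifen. BATdKO mice also carried Ucp1CreERT2, a Cre recombinase that tamoxifen switches on and that the Ucp1 promoter directs to brown adipocytes, and Cre- mice lacked it. Other cell types of the tissue were not the intended target, although the study raises possible deletion in early progenitors. In which cells deletion took place was not tested here. The mice had been raised at 22°C and were used from 3 weeks after the last injection. Mice of the warm groups spent 4 days at 30°C. Those of the cold groups passed through 18, 16 and 12°C for 1 day each before a period at 8°C that the labels give as 6 days and the study's methods give as shorter. The labels describe females and 6 mice a group, whereas the study's figure legend for these data describes males and fewer mice, some having been left out as outliers that its text does not name. All 24 libraries were used here. Tamoxifen age is given as 5 years in the labels and as 5 weeks in the methods. The numbers that the labels give to the libraries form separate runs for the 30°C and the 8°C mice, so temperature and any step done in such runs cannot be told apart.

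Purine nucleotides are built on phosphoribosyl pyrophosphate (PRPP) in a chain of reactions that ends in IMP. From IMP one branch leads through IMP dehydrogenase and GMP synthetase to GMP, and another through adenylosuccinate synthetase and adenylosuccinate lyase to AMP. Impdh2 is the isozyme best known from dividing cells, while Impdh1 is the form known from retina and several resting tissues. In brown adipocytes purine nucleotides also bind and inhibit UCP1, the protein that turns mitochondrial respiration into heat.

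Promoter sequences are shown for both IMP dehydrogenase genes, which differed in their cold response, and for Paics, as an example of a gene of IMP synthesis that did not pass the test. They are from RefSeq on GRCm38.p6, 250 bases before to 50 after the start, read 5′ to 3′ on the strand of the gene. RefSeq entries were found for 9 of the 10 members, all but Pfas, and Impdh1 had 2 starts, the downstream one at chr6:29212248-29212547 and the upstream one at chr6:29216315-29216614, both on the minus strand. The Impdh2 window is chr9:108560186-108560485 and the Paics window chr5:76951052-76951351, both on the plus strand. Capitals mark the E-box CACGTG and TGACG, the core of the cAMP response element, the latter written CGTCA where it lies on the other strand.
Impdh1, downstream start: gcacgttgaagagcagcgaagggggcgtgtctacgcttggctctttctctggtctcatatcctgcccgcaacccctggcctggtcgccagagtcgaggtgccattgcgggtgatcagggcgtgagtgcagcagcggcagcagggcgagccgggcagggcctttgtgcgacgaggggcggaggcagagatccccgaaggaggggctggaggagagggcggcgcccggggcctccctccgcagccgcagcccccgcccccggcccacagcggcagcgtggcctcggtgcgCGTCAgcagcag
Impdh1, upstream start: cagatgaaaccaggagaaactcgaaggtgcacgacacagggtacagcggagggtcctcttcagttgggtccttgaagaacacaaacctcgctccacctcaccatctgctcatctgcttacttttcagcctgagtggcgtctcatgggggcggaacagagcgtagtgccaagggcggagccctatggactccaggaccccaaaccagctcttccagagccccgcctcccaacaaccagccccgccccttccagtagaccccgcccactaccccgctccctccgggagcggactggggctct
Impdh2: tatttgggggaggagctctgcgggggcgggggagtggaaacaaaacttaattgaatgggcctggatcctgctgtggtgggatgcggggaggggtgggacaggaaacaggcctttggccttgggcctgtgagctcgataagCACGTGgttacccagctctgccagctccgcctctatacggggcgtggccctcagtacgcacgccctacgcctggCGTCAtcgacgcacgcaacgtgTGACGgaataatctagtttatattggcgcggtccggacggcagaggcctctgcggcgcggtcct
Paics: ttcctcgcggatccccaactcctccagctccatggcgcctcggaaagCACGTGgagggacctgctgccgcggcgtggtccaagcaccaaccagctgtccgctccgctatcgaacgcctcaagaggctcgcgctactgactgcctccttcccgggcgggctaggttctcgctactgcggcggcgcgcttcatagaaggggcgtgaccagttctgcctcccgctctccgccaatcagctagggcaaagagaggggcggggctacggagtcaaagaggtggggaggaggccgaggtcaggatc
The E-box CACGTG, which reads the same on both strands, was found in the windows of Paics, Atic and Impdh2 and in neither window of Impdh1. Of the 32851 mouse promoter windows of this length that were searched, 7.15% held it. The search did not cover every chromosome. The core TGACG was searched on both strands. It was found in the windows of Ppat, Gart, Impdh2, Gmps and the downstream start of Impdh1, against 20.8% of the windows searched. The full cAMP response element TGACGTCA, which overlaps this core, and the ATF4 element TGATGNAA were found in none of the members' windows. Of the windows searched, 1.79% and 3.97% held them. These letters are matches in a window and not measured sites.

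The libraries held between 699703 and 11527643 counts, with the lowest total in Cre- mouse m4 at 30°C. Levels are given as CPM, counts scaled to TMM-normalised library sizes. Ucp1, the defining brown adipocyte gene, was present in all libraries. It was at 177 ± 186 and 290 ± 123 CPM (SD, n = 6 each) in Cre- and BATdKO mice at 30°C. At 8°C it was at 1540 ± 375 and 1690 ± 293 CPM. Among the warm libraries, Cre- m6 held 548 CPM of Ucp1 and BATdKO m6 held 84.7 CPM. The remaining warm libraries held 28.9 to 133 CPM (Cre-) and 217 to 412 CPM (BATdKO). Transcripts typical of liver were abundant in every library, with 5 hepatocyte markers (Alb, Ttr, Apoa1, Apoa2 and Serpina1c) taking 2.27% to 3.57% of the counts and the Mup genes, urinary proteins made by liver, a further 11.5% to 17.5%. Of the 5 markers, 0 passed the edgeR test for cold in either genotype or for genotype at 8°C (0 at an unadjusted p under 0.05). How much of the count of each enzyme came from such RNA was not tested. Tbl1xr1 (TBLR1) was higher under the BATdKO label, with 39.8 ± 4.01 against 20.9 ± 2.24 CPM at 8°C (SD, n = 6 each). Tbl1x (TBL1) stood at 53.8 ± 6.75 against 40.7 ± 1.88 CPM. A loss of these transcripts in BATdKO mice would give lower values, so the tags do not show the deletion. Whether these 3′ tags lie in the deleted exons is not given in the sources used here. At 30°C the library labelled Cre- m6 held 38.6 CPM of Tbl1xr1, within the range of the other BATdKO libraries, and the library labelled BATdKO m6 held 17.0 CPM, within the range of the other Cre- libraries. The same 2 libraries held 53.5 CPM (Cre- m6) and 39.7 CPM (BATdKO m6) of Tbl1x. Each thus resembled the libraries of the other genotype label at 30°C, and whether labels were exchanged was not tested. The values that moved most without these 2 libraries are given beside the results they touch.

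Impdh1 (ENSMUSG00000003500, chr6:29200434-29216364 on the minus strand of GRCm38, with no annotated exon of another gene over its exons) fell in the cold in BATdKO mice 9.16-fold below its warm level. In the 6 BATdKO mice at 30°C it was at 33.6, 51.6, 38.3, 62.5, 45.9 and 71.5 CPM, and in the 6 at 8°C at 6.97, 6.00, 7.13, 5.52, 3.85 and 4.30 CPM. The lowest warm mouse was thus far above the highest cold mouse, and the groups did not overlap. The change was a fall by 3.20 on the log2 scale (SE 0.25), with an adjusted p of 8.9e-09 in edgeR's quasi-likelihood test with Benjamini-Hochberg adjustment. This was the smallest p of the 12485 genes tested in that comparison. The rule that chose Impdh1 had not used the BATdKO libraries, although earlier results of these data were known. The fit shared its estimate of the spread over all 4 groups, so the Cre- libraries entered this p through the spread. Without both m6 libraries the log2 change was -3.09 (adjusted p = 1.24e-08). Of all genes tested, 7.07% were called for cold in BATdKO mice (3.76% higher and 3.31% lower), and 1.24% were lower with no overlap between groups. Behind the cold values stood 16 to 61 counts of Impdh1 per library.

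In Cre- mice, where the gene was picked, Impdh1 was at 88.2, 76.6, 25.0, 49.2, 75.6 and 57.7 CPM at 30°C and at 10.6, 12.5, 10.9, 8.76, 10.2 and 8.73 CPM at 8°C. These groups did not overlap either, and the log2 difference was -2.63 (SE 0.23), or 6.18-fold lower, and -2.67 without both m6 libraries. Of all genes, 0.745% were lower in this comparison with no overlap. Mouse m3, the lowest of the warm Cre- mice at 25.0 CPM, was still above every cold mouse of both genotypes. In this bulk tissue, fewer cells that express a gene and less RNA of it per cell cannot be told apart.

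The order of the 4 group means of Impdh1 was Cre- at 30°C (62.0 ± 23.0 CPM), BATdKO at 30°C (50.6 ± 14.4 CPM), Cre- at 8°C (10.3 ± 1.44 CPM) and BATdKO at 8°C (5.63 ± 1.35 CPM; SD, n = 6 each). The warm groups overlapped over most of their ranges. The cold groups did not, since the lowest Cre- mouse, at 8.73 CPM, was above the highest BATdKO mouse, at 7.13 CPM. The log2 difference of BATdKO from Cre- was -0.88 (SE 0.27) at 8°C and -0.31 (SE 0.21) at 30°C, and the cold effects differed between genotypes by -0.57 (SE 0.34) on the log2 scale. Without both m6 libraries these were -0.89, -0.47 and -0.42. These 3 differences are given without a test because the Cre- libraries in them were used to choose the gene. Among all genes tested, 0.873% were lower in BATdKO than in Cre- mice at 8°C with no overlap.

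**Figure D1:**
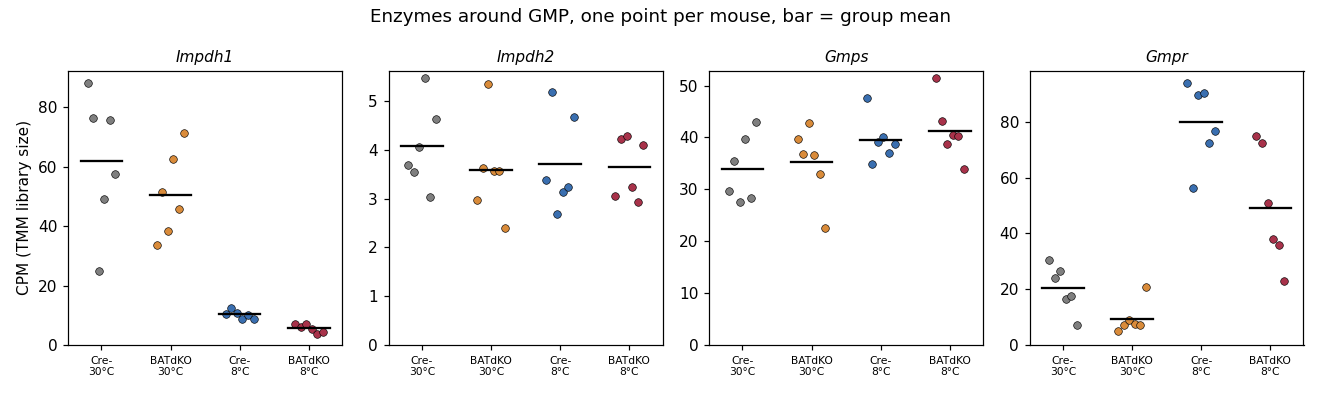
CPM of Impdh1, Impdh2, Gmps and Gmpr in each mouse (points) with the group mean (bar), in 4 groups of 6 mice, each panel on its own linear axis from 0. Impdh1 was lower in both cold groups, Impdh2 and Gmps stayed within overlapping ranges, and Gmpr was highest in the cold groups.

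Impdh2, the other IMP dehydrogenase (chr9:108560286-108565584, plus strand), did not share this pattern. It ranged from 2.40 to 5.34 CPM (median 3.56) in BATdKO mice at 30°C and from 2.93 to 4.28 CPM (median 3.68) at 8°C, and the ranges overlapped. The log2 change with cold was 0.07 (95% interval -0.33 to 0.46, adjusted p = 0.92 in edgeR's test). The corresponding ranges in Cre- mice were 3.04 to 5.47 CPM in the warmth and 2.69 to 5.18 CPM in the cold. The last 400 bases of Impdh2 are 100% identical to the annotated pseudogene Impdh2-ps, which held 0 to 18 counts per library, and an exon of Ndufaf3 overlaps Impdh2 on the other strand. Reads of Impdh2 may thus have been split or discarded, and its level is uncertain.

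Taken within a library, where depth cancels, there was a median of 13.6 Impdh1 counts for each Impdh2 count in BATdKO mice at 30°C (range 7.16 to 29.8) and of 1.54 at 8°C (range 1.05 to 2.29). The warm and cold ranges were apart. The mean log2 ratio changed by -3.19, with a two-sided exact permutation p of 0.00216 over 924 assignments, the smallest this design allows (6 against 6). Without BATdKO m6 at 30°C, the warm library of the highest ratio, the change was -2.98. It changed by -3.08 when the counts of Impdh2-ps were added to those of Impdh2, with the same p. In Cre- mice the median ratio was 17.0 at 30°C (range 6.17 to 24.9) and 2.96 at 8°C (range 1.86 to 4.07). The 2 isozymes together came to 54.2 ± 14.0 CPM in warm and 9.27 ± 1.63 CPM in cold BATdKO mice (SD, n = 6 each).

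Gmps, GMP synthetase, takes the product of IMP dehydrogenase to GMP. It stood at 22.5 to 42.8 CPM (median 36.7) in warm and at 33.8 to 51.4 CPM (median 40.4) in cold BATdKO mice. The ranges overlapped, and the log2 change of 0.22 (95% interval -0.04 to 0.48) did not pass the test (adjusted p = 0.39, edgeR). In Cre- mice its log2 difference with cold was 0.24 (SE 0.13), and 0.34 without both m6 libraries.

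Gmpr, GMP reductase, runs the other way and returns GMP to IMP. It is no member of the 10, but belongs to the listed genes of purine interconversion, and it moved opposite to Impdh1. In BATdKO mice Gmpr was at 5.05, 7.26, 8.98, 7.56, 7.28 and 20.9 CPM at 30°C and at 74.9, 72.6, 51.0, 38.2, 35.8 and 22.9 CPM at 8°C. All cold values were above all warm ones, a pattern that 1.75% of all genes showed, the nearest pair being 20.9 CPM in the warm library m6 and 22.9 CPM in the cold. The log2 change was 2.37 (SE 0.32), or 5.15-fold higher, with an adjusted p of 3.24e-05 (edgeR), and 2.74 without both m6 libraries (adjusted p = 1.05e-07). In Cre- mice the log2 difference with cold was 1.93 (SE 0.30), or 1.72 without them, from 20.4 ± 8.39 to 79.8 ± 14.3 CPM (SD, n = 6 each). Between genotypes at 30°C the log2 difference of Gmpr was -1.15 (adjusted p = 0.18), and without both m6 libraries, which held 7.21 CPM (Cre-) and 20.9 CPM (BATdKO), it was -1.74 (adjusted p = 0.000307). At 8°C it was -0.71 (adjusted p = 0.35), and -0.72 without them (adjusted p = 0.061). Gmpr is also expressed in skeletal muscle, and an exon of Atxn1 overlaps it on the other strand. The summed level of the 9 listed muscle markers ranged from 15.4 to 579 CPM in warm and from 0.978 to 142 CPM in cold BATdKO mice, ranges that overlapped, and their part in the Gmpr result was not tested.

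**Figure D2:**
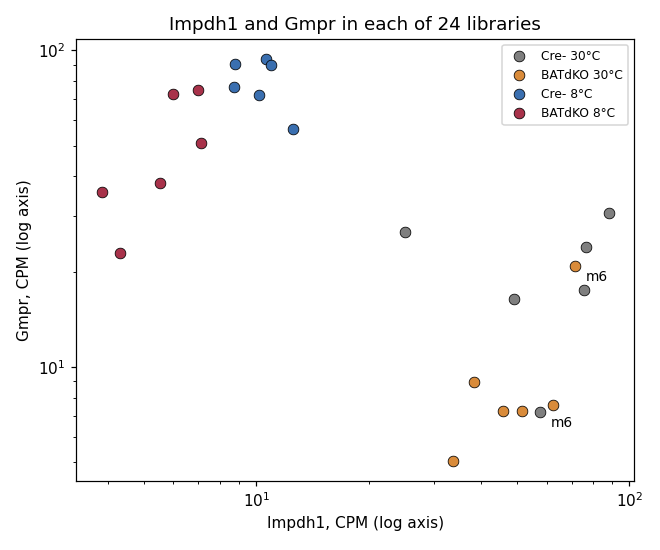
Impdh1 (x axis) against Gmpr (y axis) in CPM on log axes, with a point for each of the 24 libraries, coloured by group and with both m6 libraries at 30°C marked. Cold libraries lie at low Impdh1 and high Gmpr, and each m6 library lies at the Gmpr level of the other genotype label.

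The genes of IMP synthesis differed from Impdh1 in that none of them passed the test for cold in BATdKO mice. Of the 9 members other than Impdh1, 0 were called in that comparison by edgeR, 0 had an unadjusted p under 0.05, and DESeq2 also called 0. Their log2 changes ran from -0.15 (Gart) to 0.29 (Paics) with a median of 0.06, against -0.0026 over all genes tested.

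Ppat, the amidophosphoribosyltransferase that opens the pathway, was at 4.88 to 9.49 CPM (median 7.56) in warm and 5.17 to 8.78 CPM (median 6.84) in cold BATdKO mice. Its log2 change was -0.09 (95% interval -0.45 to 0.27). Paics, which adds carbon dioxide and aspartate to the growing ring, had the widest spread of the members on the log2 scale in warm BATdKO mice, at 34.7 to 120 CPM (median 103) in warm and 76.1 to 142 CPM (median 108) in cold BATdKO mice. The ranges overlapped, and the log2 change was 0.29 (95% interval -0.14 to 0.72). Ppat (chr5:76913249-76951578, minus strand) and Paics (chr5:76951307-76967509, plus strand) lie head to head with starts 271 bases apart, and their annotated exons overlap on opposite strands. The overlap lies at their 5′ ends, whereas the tags lie close to the 3′ ends. Reads within the overlap can be told apart only if reads were counted by strand, which is not given in the sources used here.

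Gart, a trifunctional enzyme of several early steps, was at 5.30 to 8.41 CPM in warm and 4.01 to 7.31 CPM in cold BATdKO mice, with a log2 change of -0.15 (95% interval -0.52 to 0.23). The antisense gene Gm15964 overlaps its exons. Pfas, which uses glutamine to aminate formylglycinamide ribonucleotide, was at 3.90 to 5.13 and 1.74 to 5.52 CPM, with a log2 change of -0.11 (95% interval -0.44 to 0.22). Both genes had overlapping groups and few counts, as low as 11 for Gart and 4 for Pfas in cold BATdKO mice.

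Adsl, adenylosuccinate lyase, acts in IMP synthesis and again in the AMP branch, and Atic carries out the final steps to IMP. Adsl was at 6.46 to 9.82 CPM in warm and 7.82 to 11.3 CPM in cold BATdKO mice (log2 change 0.06, 95% interval -0.24 to 0.36). For Atic the ranges were 5.71 to 11.0 and 6.97 to 11.0 CPM (log2 change 0.15, 95% interval -0.15 to 0.46). The 95% intervals of all 9 genes excluded a fall by 1 on the log2 scale, that is, to 50% of the warm level.

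**Figure D3:**
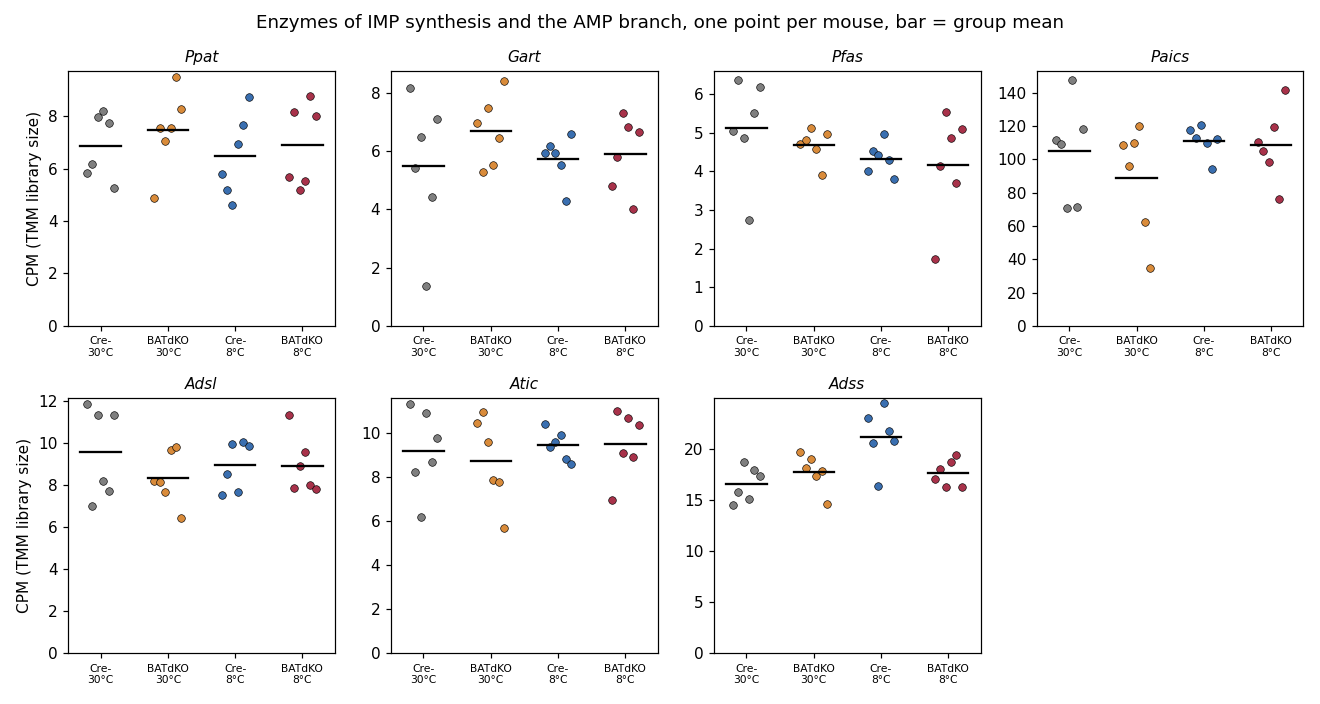
CPM of Ppat, Gart, Pfas, Paics, Adsl, Atic and Adss in each mouse (points) with the group mean (bar), each panel on its own linear axis from 0. In every panel the warm and cold BATdKO groups overlap, and Adss is highest in Cre- mice at 8°C.

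Adss, adenylosuccinate synthetase, opens the AMP branch. It was at 14.5 to 18.6 CPM (median 16.5) in Cre- mice at 30°C and at 16.3 to 24.4 CPM (median 21.2) at 8°C, and at 14.6 to 19.7 CPM (median 17.9) and 16.2 to 19.4 CPM (median 17.5) in BATdKO mice. The cold Cre- mice, all but the one at 16.3 CPM, were above every mouse of the other groups. The log2 difference with cold was 0.35 (SE 0.10) in Cre- mice and 0.00 (95% interval -0.20 to 0.19) in BATdKO mice. Between genotypes at 8°C it was -0.26 (SE 0.10, unadjusted p = 0.0099, adjusted p = 0.25), and the difference of the cold effects was -0.35 (SE 0.14, unadjusted p = 0.015, adjusted p = 0.50). Neither passed the adjusted test, so a differing cold response of Adss between genotypes was not shown. Adssl1, the muscle-type isozyme of the same step, had a log2 difference with cold of -0.01 in BATdKO mice and of -0.90 (SE 0.30, adjusted p = 0.0695, edgeR) in Cre- mice. Its genotype difference was -1.07 at 30°C (adjusted p = 0.17, edgeR), where DESeq2 called it lower. The summed level of the muscle markers ranged from 2.68 to 7637 CPM in warm Cre- mice, where Adssl1 ran from 2.73 to 17.3 CPM, and its part in these values was not tested.

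In Cre- mice, 2 of the 10 members were called for cold, Impdh1 lower and Adss higher, where 9.15% of all genes were called, 3.59% lower and 5.57% higher. Without both m6 libraries 3 were called, Gmps being the third. Pfas had a log2 difference of -0.34 (SE 0.16) and the remaining 6 lay between -0.14 and 0.12. The Cre- libraries are those in which Impdh1 was picked, and nothing is read from this count.

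**Figure D4:**
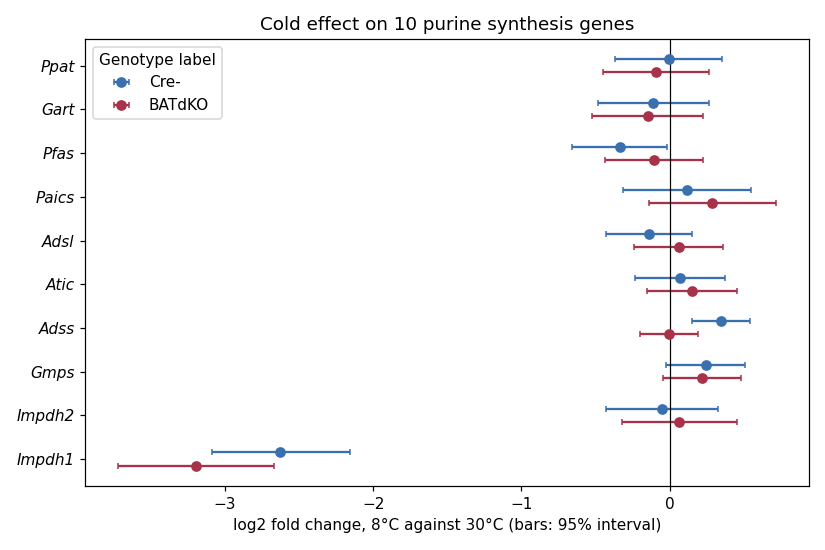
Log2 fold change of 8°C against 30°C (x axis) for the 10 members (y axis), with 95% intervals, in Cre- and BATdKO mice. Impdh1 stands at -2.63 and -3.20, while all other members lie between -0.34 and 0.35.

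Genotype made no difference that passed the test for the 9 members other than Impdh1. At 8°C, where 1.82% of all genes were called, 0 of the 9 were called by edgeR, 1 (Adss) had an unadjusted p under 0.05, and DESeq2 called 0. Their log2 differences of BATdKO from Cre- ran from -0.26 to 0.10 with a median of 0.00062, and the median over all genes was -6.08e-05. At 30°C edgeR called 0 of the 9, with 0 at an unadjusted p under 0.05, and DESeq2 called 0. Of all genes edgeR called 0% there, while 1303 had an unadjusted p under 0.05 and DESeq2 called 90. Without both m6 libraries edgeR called 500 genes at 30°C, 295 higher and 205 lower, and still 0 of the 9. For the difference of the cold effects edgeR called 0.0961% of all genes and 0 of the 9 members, with 1 (Adss) at an unadjusted p under 0.05 and 0 called by DESeq2.

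Around the pathway, the listed genes that supply it, recycle purines or use nucleotides were examined in the cold in BATdKO mice, against 7.07% of genes called in all. The list medians of the log2 change were -0.12 (PRPP supply), 0.19 (serine and folate), 0.09 (salvage), 0.13 (interconversion), -0.04 (breakdown), -0.05 (pyrimidine synthesis) and 0.46 (deoxynucleotides). Of the 4 PRPP genes, 0 were called by edgeR (2 at an unadjusted p under 0.05) and 0 by DESeq2. Prps1, a PRPP synthetase, had a log2 change of -0.25 and Prpsap2, a synthetase-associated protein, of -0.70 (adjusted p = 0.26 each). Of 9 tested genes of serine and folate one-carbon metabolism, which supplies formyl groups to the ring, 1 was higher. This was Psph, phosphoserine phosphatase, at 0.901 to 2.61 CPM in the warmth and 2.11 to 7.41 CPM in the cold (log2 change 1.04, SE 0.35, adjusted p = 0.090). Its groups overlapped, its count per library was 6 to 29, and the call was lost in 11 of 31 alternatives, among them without both m6 libraries (log2 change 0.92, adjusted p = 0.18, edgeR).

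Of 6 tested genes of purine salvage, 2 were higher. Pnp, purine nucleoside phosphorylase, rose from 5.52 ± 1.93 to 8.96 ± 2.14 CPM (log2 change 0.66, adjusted p = 0.097). Its end is 99.2% identical to that of Pnp2 and shared with Gm49342, so its count is uncertain. Dguok, deoxyguanosine kinase of mitochondria, rose from 13.0 ± 1.63 to 17.4 ± 4.09 CPM (log2 change 0.38, adjusted p = 0.099). The calls of Pnp and Dguok were lost in 19 and 21 of 31 alternatives, and without both m6 libraries the log2 changes were 0.50 and 0.32 (adjusted p = 0.18 and 0.22, edgeR). Hprt and Aprt, the salvage phosphoribosyltransferases, had log2 changes of 0.06 and -0.03.

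Of 9 tested genes of purine interconversion, 3 were higher, Gmpr (above) and Ak4 among them. Ak4, an adenylate kinase of the mitochondrial matrix, went from 10.9 ± 2.23 to 15.3 ± 1.80 CPM (log2 change 0.50, SE 0.13, adjusted p = 0.022; 0.42 and 0.039 without both m6 libraries), although its end is 99.4% identical to the pseudogene Ak3l2-ps. Guk1, guanylate kinase, which takes GMP to GDP, had a log2 change of -0.21 (adjusted p = 0.30).

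Of 7 tested genes of purine breakdown, edgeR called 1 lower and 0 higher. DESeq2 instead called 0 lower and 1 higher, Uox, which went from 300 ± 31.6 to 353 ± 29.2 CPM. In Cre- mice Uox was at 336 ± 41 CPM at 30°C and 330 ± 22 CPM at 8°C. The part of liver-type RNA in its count was not tested. The gene called by edgeR was Samhd1, which hydrolyses deoxynucleoside triphosphates. It fell from 22.6 ± 3.65 to 17.6 ± 2.21 CPM (log2 change -0.35, adjusted p = 0.098). Stretches of its end match many other genes, and the call was lost in 15 of 31 alternatives, among them without both m6 libraries (log2 change -0.34, adjusted p = 0.15). Of 3 tested genes of deoxynucleotide synthesis, 1 was higher. Rrm1, the large subunit of ribonucleotide reductase, went from 5.47 ± 1.39 to 8.65 ± 1.22 CPM (log2 change 0.63, SE 0.15, adjusted p = 0.0094), and without both m6 libraries the change was 0.57 (adjusted p = 0.029). The summed level of 3 dividing cell markers (Mki67, Top2a and Pclaf) ranged from 9.68 to 13.9 CPM in warm and from 9.39 to 29.2 CPM in cold BATdKO mice, and their part in this result was not tested. All SD values in these 3 paragraphs are over n = 6 mice, and adjusted p-values are from edgeR.

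Of 5 tested genes of pyrimidine synthesis edgeR called 0 for cold in BATdKO mice (1, Cad, at an unadjusted p under 0.05), and DESeq2 called 1 (Cad). Cad, the trifunctional enzyme that opens pyrimidine synthesis, was the single gene of these lists called for genotype at 8°C, where 1.12% of all genes were called lower. It was at 15.4 to 20.4 CPM (median 16.7) in Cre- and at 6.98 to 12.5 CPM (median 11.7) in BATdKO mice at 8°C. These groups did not overlap, and 0.873% of all genes were lower there with no overlap. The log2 difference of Cad was -0.64 (SE 0.17, adjusted p = 0.064, edgeR). This call was lost when any one of 7 cold mice was left out, with adjusted p up to 0.17. At 30°C it was at 4.10 to 10.4 and 4.84 to 11.7 CPM, and its log2 change with cold was 0.97 (SE 0.17) in Cre- and 0.49 (SE 0.18, adjusted p = 0.13) in BATdKO mice, the latter being called without both m6 libraries (0.62, adjusted p = 0.045). The difference between those changes, -0.47 (SE 0.25), did not pass the test (adjusted p = 0.64). Among the regulators Atf4 alone was tested, with a log2 change of 0.10 in cold BATdKO mice.

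**Figure D5:**
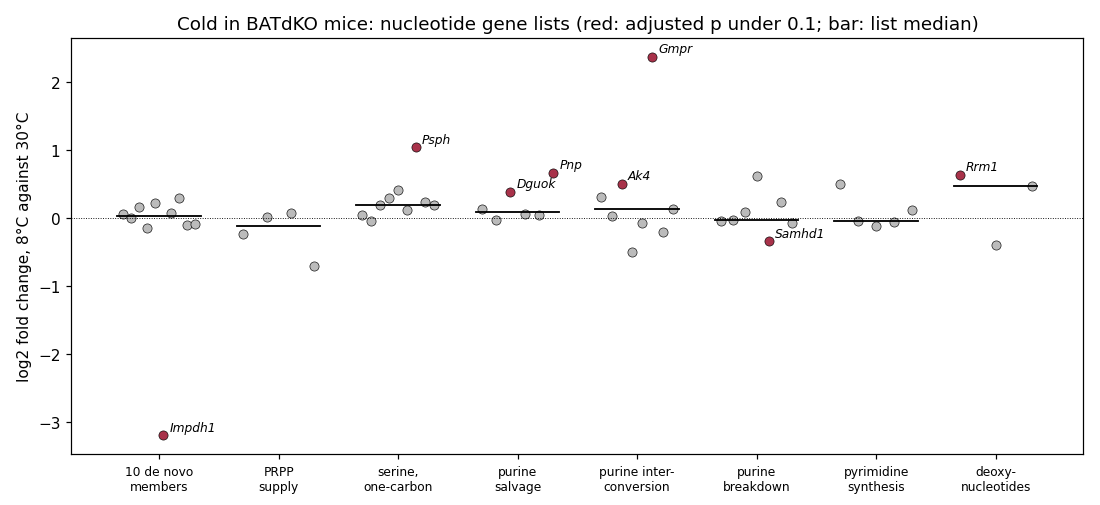
Log2 fold change of 8°C against 30°C in BATdKO mice (y axis) for the members and 7 lists of nucleotide genes (x axis), with a point for each gene reported here, red where the adjusted p was under 0.1, and a bar at the list median. Impdh1 at -3.20 and Gmpr at 2.37 stand apart from the other points, and the list medians lie between -0.12 and 0.46.

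The genes whose 4 group means of log2 CPM, each centred on its own mean, came nearest to those of Impdh1 were Apcdd1, Cfd, Fhl3, Gpx3 and Ccdc80, at distances of 0.868 to 1.49. After the group means were removed, their Pearson r with Impdh1 over the 24 libraries was -0.05, 0.20, -0.22, 0.39 and -0.18 in that order. Their mean log2 CPM was -0.36, 7.48, 1.32, 8.15 and 4.86, against 4.32 for Impdh1. The profile of Apcdd1, the nearest, thus rests on a level near the floor. Cfd, the adipocyte protease adipsin, had centred means of 1.08, 0.86, -0.12 and -1.81 in Cre- and BATdKO mice at 30°C and in Cre- and BATdKO mice at 8°C, where Impdh1 had 1.52, 1.29, -0.96 and -1.85. Gpx3, a secreted glutathione peroxidase, had 0.88, 0.66, -0.17 and -1.37. No member was near, the closest being Pfas at rank 1412 of the tested genes. By the same r the genes highest with Impdh1 were Izumo4, Mtfp1, Trp53, Arhgef28 and Gm11410, between 0.73 and 0.74, and their group means ranked no nearer than 3191. The r of the other 9 members ran from -0.53 (Adss) to 0.13 (Gart). The libraries share depth and dissection as well as any biology, so these values describe the data only.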

How the data were processed

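BAT RNA of 24 mice was sequenced with QuantSeq 3′ libraries. From the forward reads, after BBDuk trimming, STAR alignment to GRCm38 and Rsubread summing, the authors deposited a table of raw counts, not normalised. The annotation release, strand setting and rule for leaving out low genes are not given in the sources used here. The members and lists were chosen with earlier results of these data known.

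The main test was edgeR 4.0.16 in R 4.3.3 (TMM, filterByExpr, 1 quasi-likelihood fit of the 4 group means), and p-values were adjusted by Benjamini-Hochberg over 12485 genes with a threshold of 0.1. Contrasts were cold in each genotype, genotype at each temperature and their interaction. Standard errors came from the fitted model. The Impdh1 to Impdh2 ratio (0.5 added to each count) was tested by exact permutation. The labels do not say that samples of a group came from separate litters, so p-values measure the spread between these mice. Mice are called m1 to m6 by the order of their numbers in the labels. Of 12615 rows, 12608 matched a symbol. List genes with no row or under the filter (such as Gmpr2, Ada, Dck and Rrm2) were not analysed here, and 1 tested gene of the interconversion list, counted in its totals, is not reported here. Genes named are the members, list genes called for cold in BATdKO mice or for genotype at 8°C, further list genes chosen after their values were seen and, by rule, the 5 nearest profiles and the 5 highest correlations with Impdh1. DESeq2 1.42.0, other filters and normalisations and leaving out each mouse were alternatives. Positions are from GENCODE vM21. The fit was tested on simulated data.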

Additional observations from a re-analysis of the deposited data

How the results depend on the processing

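The fall of Impdh1 in cold BATdKO mice kept its direction and its side of the threshold under 31 alternatives, with log2 changes from -3.29 to -3.08 and adjusted p from 1.75e-36 to 3.24e-07. The Impdh1 to Impdh2 ratio did so under 14, with changes in the mean log2 ratio from -3.39 to -2.98 and an exact permutation p of 0.00216 in each. No called value of any gene changed sign. Of their values under alternatives, 2797 stayed on their side of the threshold, 80 lost a call and 18 gained one. The calls of Psph, Dguok, Pnp and Samhd1 for cold in BATdKO mice were lost in 11, 21, 19 and 15 of 31 alternatives, among them without BATdKO m6 at 30°C and without BATdKO m1 at 8°C. Those of Ak4, Rrm1 and Gmpr were lost in none of the 31. Cad lost its genotype call at 8°C without any one of 7 cold mice (Cre- m1, m4 or m5, BATdKO m2, m4, m5 or m6), with adjusted p up to 0.17. Adss gained one without Cre- m3 at 8°C (adjusted p = 0.099).

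Counts of genes called moved more, and the cause was not tested. DESeq2 called 48 genes higher and 42 lower for genotype at 30°C where edgeR called 0, and 18 higher and 33 lower for the interaction where edgeR called 7 and 5. For the interaction, RLE normalisation called 8 genes lower and robust dispersion 12. A fit of only the 8°C groups called 171 genes higher and 306 lower for genotype, against 87 and 140. Both DESeq2 and that fit counted 1 member for genotype at 8°C where edgeR counted 0. It was Impdh1, whose genotype difference carries no test here because Cre- libraries chose the gene, so nothing is read from it. Without both m6 libraries at 30°C, chosen after seeing the data, 707 genes were lower for cold in Cre- mice against 448, 134 were higher for genotype at 8°C, 295 were higher and 205 lower for genotype at 30°C, and 34 were lower for the interaction. With each mouse left out in turn, the genes lower for cold in Cre- mice ranged from 252 (without Cre- m6 at 8°C) to 561, and those lower for cold in BATdKO mice from 238 (without BATdKO m4 at 8°C) to 522. For genotype at 8°C the range was 54 (without BATdKO m1 at 8°C) to 113 higher and 76 (without BATdKO m5 at 8°C) to 167 lower, with 0 to 1 member counted, which was Impdh1 again without Cre- m3 or BATdKO m6 at 30°C and Adss without Cre- m3 at 8°C. For genotype at 30°C it was 0 to 217 higher and 0 to 152 lower, the highest both without Cre- m6. For the interaction it was 6 to 12 higher and 1 to 27 lower, the last without Cre- m2 at 8°C.

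No paired analysis was possible because the mouse numbers in the labels differ between groups and pair no mice. The lowest library held 699703 counts, and members such as Pfas and Impdh2 had few counts. Interval width did not simply follow the counts. For cold in BATdKO mice the interval of Paics, a member with many counts, was wider than that of Pfas.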
